A study of Mus musculus with 8 samples.

Results

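The 5 genes Dmp1, Dspp, Ibsp, Mepe and Spp1 are the mouse SIBLING family (small integrin-binding ligand, N-linked glycoproteins), and they were followed as a named set among 47729 genes in the table for neural stem cells (NSCs) and 40562 genes in the table for astrocytes. The members were chosen by symbol as a named family, with earlier results of these data known. RNA sequencing covered 8 samples of C57BL/6 background, for which the labels give an age of 10 weeks. The S89G-DMP1 samples came from mice with a knock-in point mutation that exchanges a serine of DMP1 for glycine, and the wild type (WT) samples came from C57BL/6 mice. The mutation was placed in exon 6 of Dmp1 in C57BL/6J embryonic stem cells, and the selection cassette downstream of that exon was removed by crossing to an FLP line of B6.129S4 origin, so the S89G-DMP1 allele, any recombination site left behind it and sequence linked to it cannot be told apart here. NSCs of the sub-ventricular zone were grown as neurospheres in serum-free medium, with 3 WT-NSC and 3 S89G-NSC libraries. Astrocytes of the cortex were grown in serum, with 1 WT-AST and 1 S89G-AST library, and the methods state that the donor mice of astrocyte cultures were 3 months old.

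SIBLING proteins are secreted, acidic and heavily phosphorylated glycoproteins that are best known from bone and tooth. They carry an arginine-glycine-aspartate (RGD) tripeptide that integrins bind, they bind calcium and mineral, and proteases cut several of them into fragments. DMP1, dentin matrix protein 1, is cut into an N-terminal and a C-terminal part, and its N-terminal part can carry a chondroitin sulfate chain on a serine residue. SPP1, osteopontin, is also made outside the skeleton, by macrophages and microglia among other cells. IBSP, bone sialoprotein, and MEPE belong to mineralizing bone, and DSPP is the precursor of the main non-collagenous proteins of dentin.

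The genes form 1 block on chromosome 5 of GRCm38, in the order Dspp, Dmp1, Ibsp, Mepe and Spp1, all on the plus strand, with no other annotated protein-coding gene between them. Dmp1 spans chr5:104202613-104214102 and Spp1 spans chr5:104435118-104441050 in the GENCODE M21 annotation. The integrin-binding tripeptide is what the family shares in sequence, and it occurred once in the coding sequence of the representative transcript of each of the 5 members. The 27 bases around it are shown on the plus strand, with the 3 codons for arginine, glycine and aspartate in capitals.
Dspp, exon 5, chr5:104177198-104177224: agtggcagcCGTGGAGATgcttcttac
Dmp1, exon 6, chr5:104212498-104212524: agcgagtccAGGGGTGACaacccagat
Ibsp, exon 7, chr5:104310466-104310492: ggggagcctCGTGGCGACacttaccga
Mepe, exon 3, chr5:104337533-104337559: cttctagtgAGGGGAGATaatgatgtc
Spp1, exon 7, chr5:104439472-104439498: cccaacggcCGAGGTGATagcttggct
The tripeptide is encoded by codons 350 to 352 of the 503 codons of Dmp1 and by codons 145 to 147 of the 295 codons of Spp1.

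The substitution that defines the mutant lies in the same exon 6 of Dmp1, upstream of the RGD codons. From where residue 89 is counted is not given in the sources used here. Counted from the start codon, codon 89 is TCT, a serine codon, at chr5:104211724-104211726. The next serine codon that is followed by a glycine codon, the dipeptide on which chondroitin chains are usually started, is AGT at codon 105, 16 codons further on. The reference sequence of exon 6 over both positions, chr5:104211706-104211792, is printed with codon 89, codon 105 and the glycine codon GGA after it in capitals, and the text does not decide between them.
Dmp1, codons 83 to 111: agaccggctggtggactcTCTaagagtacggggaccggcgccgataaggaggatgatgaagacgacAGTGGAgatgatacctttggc

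Promoter sequences of Dmp1 and Spp1, the members with more than 1 read in any library, are shown because both genes were lower in S89G-NSC. They are RefSeq sequences of GRCm38.p6, each covering the 250 bases before an annotated start. RefSeq gives 2 starts each for Dmp1 and Spp1 and 1 each for Ibsp and Mepe. The capitals mark TGTGGT or its reverse complement ACCACA, letters bound by RUNX factors. They also mark TATAAA or its reverse complement TTTATA, the letters of a TATA box, at any distance from the start.
Dmp1, second start, chr5:104202367-104202616: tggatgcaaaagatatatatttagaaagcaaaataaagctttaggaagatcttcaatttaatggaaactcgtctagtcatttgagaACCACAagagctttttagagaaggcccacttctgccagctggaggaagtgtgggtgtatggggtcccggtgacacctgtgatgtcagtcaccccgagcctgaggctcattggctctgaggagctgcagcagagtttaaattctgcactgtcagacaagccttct
Spp1, first start, chr5:104434861-104435110: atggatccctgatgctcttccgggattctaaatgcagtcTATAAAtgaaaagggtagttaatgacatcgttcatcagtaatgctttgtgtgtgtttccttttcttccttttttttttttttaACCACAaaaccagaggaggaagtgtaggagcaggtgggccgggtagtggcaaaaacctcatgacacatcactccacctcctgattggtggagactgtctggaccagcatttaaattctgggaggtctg
The RUNX letters occurred 1 time in each of these windows and 2 times in that of Mepe, and 14% of 32851 promoter windows of this length hold them on either strand. They were absent from the windows of the first Dmp1 start, the second Spp1 start and Ibsp. The TATA letters occurred once in the windows of the first Spp1 start, Ibsp and Mepe and are held by 12.4% of all windows. The window of the first Dmp1 start held CACGTG, the E-box, 2 times, which 6.02% of windows hold at least once. TGANTCA, the AP-1 letters, occurred in none of the members' windows and in 6.75% of all windows. A match is a description of the letters only.

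Between 2354615 and 2588130 reads were counted on genes per NSC library, and 14008670 and 13016924 in WT-AST and S89G-AST. In the NSC libraries 3 counts correspond to 1.17 to 1.28 CPM (counts-per-million), so low members were measured with large counting error. Summed markers of neural progenitors stood at 4541 to 4831 CPM in WT-NSC and at 5012 to 5050 CPM in S89G-NSC, and 2 of 8 tested genes of that list were called higher in S89G-NSC and none lower. Over all tested genes 7.08% were called higher and 8.76% lower. Summed astrocyte markers stood at 1641 to 1695 CPM in WT-NSC and at 2270 to 2322 CPM in S89G-NSC, with 4 of 7 tested genes called higher (Aldh1l1 at a log2 fold change of 1.03, Gja1 at 0.91, Mlc1 at 0.71 and Slc1a3 at 0.20) and none lower. Summed markers of the oligodendrocyte lineage stood at 260 to 274 CPM and at 195 to 219 CPM, with Cspg4 at -0.56 as the 1 gene of 3 tested that was called. Of 2 tested genes of the fibroblast list Pdgfra (-0.84) was called lower, and Foxc1 at 0.57 was not called. Of 4 tested neuron markers Syt1 (-3.00) was called lower, while Snap25 at 0.48, Tubb3 at 0.24 and Map2 at 0.04 were not called. Flt1, the 1 tested gene of the endothelial list, was called higher at 1.79. It had 2, 6 and 4 counts in WT-NSC and 16, 12 and 13 in S89G-NSC. The part of these marker differences in the NSC results for the family and its partner genes was not tested. The library labelled WT-AST held few reads of several astrocyte markers, with 8 counts each of Aqp4 and Slc1a3 and 2 of Mlc1. S89G-AST held 4051, 3877 and 2399. Gja1 stood nearer, at 1165 counts in WT-AST and 1913 in S89G-AST, and S100b went the other way, at 64 and 30. Of 9 counted astrocyte markers 7 were at least 2-fold higher in S89G-AST and 1 lower, where 17.3% and 12.8% of all counted genes were. Summed fibroblast markers stood at 5317 CPM in WT-AST and 2165 CPM in S89G-AST. Summed astrocyte markers stood at 118 and 1210 CPM, of which Gja1 held 92.0 and 133 CPM. Xist had 12172 counts in WT-AST and 74 in S89G-AST, and the Y-linked Ddx3y had 0 and 1277, whereas every NSC library held both transcripts. Genotype, cell composition and sex of the animals therefore cannot be told apart between the astrocyte libraries.

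Dmp1, the mutated gene, was lower in NSCs of S89G-DMP1 mice than in WT-NSC. WT-NSC replicates 1 to 3 held 18, 21 and 16 Dmp1 reads, corresponding to 7.59, 8.16 and 6.39 CPM after TMM scaling, which sets the libraries to a common composition. S89G-NSC replicates 1 to 3 held 6, 3 and 5 reads, corresponding to 2.53, 1.28 and 2.01 CPM. Every WT-NSC library lay above every S89G-NSC library, and the lowest S89G-NSC library lay at the level of 3 counts. The means were 7.38 ± 0.902 CPM and 1.94 ± 0.624 CPM (SD, n = 3 each). In the edgeR fit the level was 3.73-fold lower in S89G-NSC. The log2 fold change was -1.90 (SE 0.380, 95% interval -2.64 to -1.15), with a Benjamini-Hochberg adjusted p of 0.00013 in edgeR's quasi-likelihood test over 11194 genes. It ranked 14 of 11194 counted from the most negative log2 fold change. In bulk samples fewer cells that express a gene and less RNA per cell cannot be told apart.

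Spp1 was lower as well, from a higher level. The WT-NSC libraries held 116, 157 and 114 Spp1 reads, or 48.9, 61.0 and 45.5 CPM. The S89G-NSC libraries held 69, 50 and 66 reads, or 29.1, 21.4 and 26.5 CPM, so the groups again did not overlap. The mean fell from 51.8 ± 8.13 to 25.6 ± 3.90 CPM (SD, n = 3 each), a log2 fold change of -1.01 (SE 0.134, edgeR adjusted p = 1.74e-08) and a level 2.02-fold lower in S89G-NSC. Both of the 2 members that could be tested were thus called lower, where 8.76% of all tested genes were called lower and 0.974% were called and 2-fold lower or more, and for both every WT-NSC library lay above every S89G-NSC library, which held for 16.0% of tested genes. An exact two-sided permutation test over the 6 libraries gave p = 0.1 for each, the smallest value that 3 against 3 libraries allow. Over the 6 fits that each lacked 1 library, the log2 fold change of Dmp1 stayed between -2.12 and -1.69 and that of Spp1 between -1.11 and -0.88, and the highest adjusted p was 0.0032 and 4.9e-06.

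**Figure D1:**
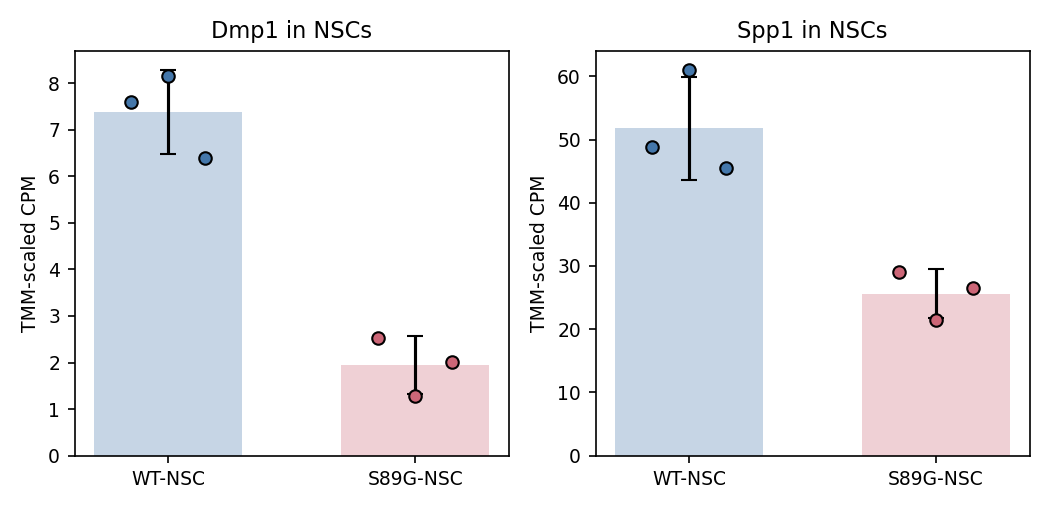
TMM-scaled CPM of Dmp1 (left) and Spp1 (right) in 3 WT-NSC and 3 S89G-NSC libraries; points are libraries, bars are means and error bars are SD. All 3 S89G-NSC points of each gene lie below all 3 WT-NSC points, with means of 1.94 against 7.38 CPM for Dmp1 and 25.6 against 51.8 CPM for Spp1.

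The deposited TPM values, which are scaled by transcript length and come from another estimate than the counts, showed the same order for Dmp1. They were 7.10, 7.12 and 5.79 in WT-NSC and 2.14, 1.20 and 1.84 in S89G-NSC. For Spp1 they were 97.1, 64.1 and 87.9 TPM in WT-NSC and 55.9, 44.0 and 51.7 TPM in S89G-NSC. WT-NSC replicate 2, which held the most Spp1 reads, thus had the lowest Spp1 TPM of its group. Its TPM was 1.06 times its CPM, against 1.94 to 2.07 times in the other 5 libraries. With limma on log2(TPM + 1) the Spp1 difference was -0.69 with an adjusted p of 0.157, so its call rests on the counts. The deposited TPM column listed 77 genes with over 60 summed NSC counts at 0 in every library.

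The Dmp1 difference was estimated as larger than that of Spp1 in the same libraries. The log2 ratio of Dmp1 to Spp1 counts was -2.77 ± 0.111 in WT-NSC and -3.62 ± 0.217 in S89G-NSC (SD, n = 3 each), a difference of -0.85. The exact two-sided permutation p of that difference was 0.1, again the smallest possible value. The 3 S89G-NSC ratios lay below the 3 WT-NSC ratios, and these 6 libraries do not settle whether the 2 genes differ in size of change.

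The other 3 members were at or near 0 in every library. Ibsp and Mepe had 0 counts in all 6 NSC libraries. On a scale of CPM per kilobase of the representative transcript (RPKM), 3 counts correspond to 0.561 to 0.616 for Ibsp and to 0.689 to 0.757 for Mepe, which is the level that a count of 0 allows. Dspp had 1 read in S89G-NSC replicate 1 and 0 in the other 5 NSC libraries, with a limit of 0.262 to 0.288 RPKM. In the deeper astrocyte libraries Dspp and Mepe had 0 counts in both, and Ibsp had 0 in WT-AST and 1 in S89G-AST. None of the 3 passed the filter on low counts, so a difference between genotypes was not detectable at this depth.

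In the astrocyte libraries Dmp1 went the other way. WT-AST held 2 Dmp1 reads (exact Poisson 95% interval 0.242 to 7.22) and S89G-AST held 119 (98.6 to 142). That corresponds to 0.158 and 8.26 TMM-scaled CPM, a ratio of S89G-AST to WT-AST of 52.3 with a counting interval of 14.2 to 437. The log2 ratio with a prior count of 2 was 4.78. Of the 15680 genes that reached 10 counts in 1 or both libraries, 17.3% were higher in S89G-AST by 2-fold or more and 8.64% by 4-fold or more. These intervals cover counting error only, no p-value can be given with 1 library per genotype, and the part of the marker differences between these libraries in the Dmp1 ratio was not tested.

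Spp1 was lower in S89G-AST, by less than 2-fold. WT-AST held 10022 Spp1 reads and S89G-AST 7087, or 792 and 492 CPM. WT-AST was 1.61 times S89G-AST, with a counting interval of 1.56 to 1.66. With library size alone in place of TMM scaling the log2 ratio moved from -0.69 to -0.39, while the median over all 15680 genes moved from 0.01 to 0.30. Microglial and macrophage markers, which mark cells known to make osteopontin, were counted in both astrocyte libraries for all 10 genes of the list. Their summed level was 623 CPM in WT-AST and 968 CPM in S89G-AST, the opposite order to Spp1, and their part in the Spp1 values was not tested. In the NSCs 7 of these 10 genes were at 0 in all 6 libraries, with sums of 4.79 to 7.16 CPM in WT-NSC and 2.81 to 6.42 CPM in S89G-NSC.

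Levels of the 2 expressed members can be compared per length. The deposited astrocyte FPKM values imply lengths of 2764 bases for Dmp1 and 1063 bases for Spp1, and the NSC counts were divided by the same lengths and by the library totals. On this RPKM scale Spp1 was highest in WT-AST at 673, followed by S89G-AST at 512, WT-NSC at 48.5 ± 7.62 and S89G-NSC at 23.9 ± 3.64 (SD, n = 3 each for the NSCs). No counting interval of a library overlapped one of the next group in this order. Dmp1 was highest in S89G-AST at 3.31, followed by WT-NSC at 2.65 ± 0.326, S89G-NSC at 0.696 ± 0.224 and WT-AST at 0.0517. The counting interval of S89G-AST, 2.74 to 3.96, overlapped those of WT-NSC, and the interval of WT-AST, which reached 0.187, overlapped that of S89G-NSC replicate 2, which began at 0.0951, so these neighbours in the order are not separated. Intervals of single WT-NSC and S89G-NSC libraries overlapped too, for example 1.31 to 3.73 in WT-NSC replicate 3 and 0.333 to 1.97 in S89G-NSC replicate 1, although the library values themselves did not. The astrocyte and NSC tables were made separately, and levels across them are only set side by side.

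**Figure D2:**
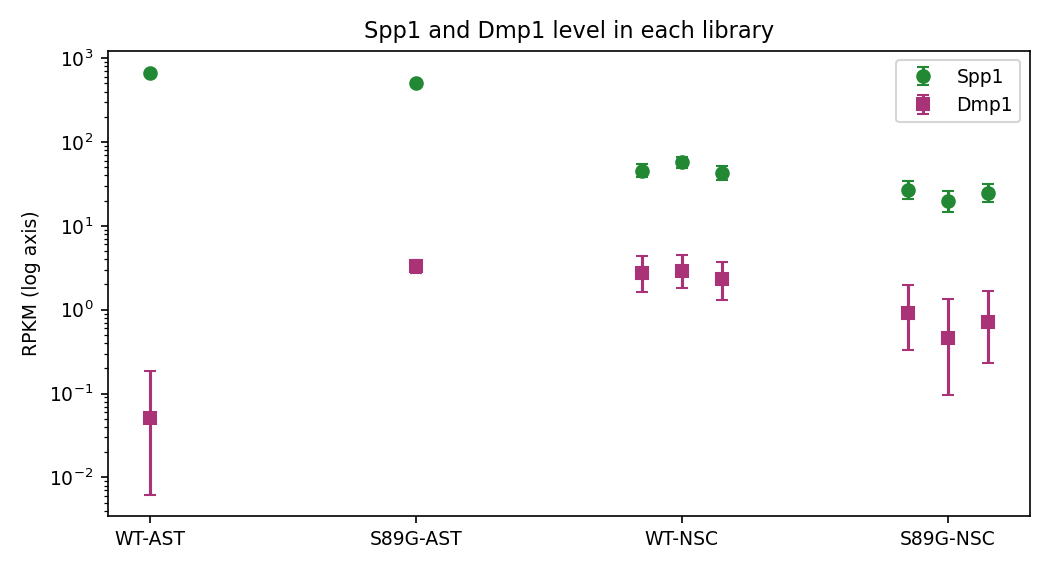
Spp1 (circles) and Dmp1 (squares) in RPKM on a log axis, 1 point per library, with exact Poisson 95% intervals. Spp1 lies above Dmp1 in all 8 libraries, and the 2 astrocyte libraries differ most in Dmp1, at 0.0517 in WT-AST and 3.31 in S89G-AST.

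Spp1 made up most of the family's reads per length everywhere. Its share of the summed RPKM was 94.4% to 95.1% in WT-NSC and 96.8% to 97.7% in S89G-NSC, and it was 99.99% in WT-AST and 99.4% in S89G-AST. The length matters for this share, since Spp1 has 7 annotated transcripts whose mean length was used, while the representative Spp1 transcript has 1411 bases.

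The genes whose profile over the 6 NSC libraries was nearest to that of Dmp1 were Pde9a, Reps2 and Pcdhga12, with root mean square differences of 0.149, 0.155 and 0.178 between gene-centred log2 CPM values. Pde9a, a cGMP phosphodiesterase, had 43, 53 and 47 counts in WT-NSC and 22, 12 and 18 in S89G-NSC. Those nearest to Spp1 were mt-Nd3, AI464131 and Gm9821, at 0.0794, 0.1003 and 0.122. The mitochondrially encoded complex I subunit mt-Nd3 had 28, 34 and 28 counts in WT-NSC and 14, 11 and 15 in S89G-NSC. These are descriptions over 6 libraries, and none of the 6 genes belongs to the lists below.

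The genes next to the family block were examined because the mutation was knocked in there. Of the 8 protein-coding genes on each side, 7 could be tested in NSCs. None of the 7 was called lower and 1 was called higher, where 8.76% and 7.08% of all tested genes were, so the count lies near the share over all genes. The 1 gene called was BC005561, on the Spp1 side, with 42, 50 and 43 counts in WT-NSC and 59, 71 and 57 in S89G-NSC and a log2 fold change of 0.52 (SE 0.164, edgeR adjusted p = 0.0202). That call was lost without S89G-NSC replicate 2 and without WT-NSC replicates 1 or 3 (the highest adjusted p was 0.166) and with DESeq2 (0.254), and in the deposited TPM values its direction was reversed. Pkd2, the gene immediately after Spp1, had a log2 fold change of 0.14, and Sparcl1, immediately before Dspp, of 0.10, and neither passed the test.

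In the astrocytes 12 of the 16 neighbours reached 10 counts in 1 or both libraries. Of these, 4 were lower in S89G-AST by 2-fold or more and 1 higher, where 12.8% and 17.3% of all counted genes were. Sparcl1, a secreted relative of SPARC that astrocytes are known to make, had 60 counts in WT-AST and 3472 in S89G-AST, a log2 ratio of 5.63. At least 2-fold lower in S89G-AST were Pkd2 at -1.56, Gbp8 at -1.80, Gbp4 at -1.45 and Abcg3. Abcg3 had 41 counts in WT-AST and 0 in S89G-AST, at least 15.5-fold lower when the 0 is set to 3 counts. Sparcl1 and Dmp1 were the only 2 of the counted genes of the region that were higher in S89G-AST by 2-fold or more. Their place in the region was not tested as a cause.

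**Figure D3:**
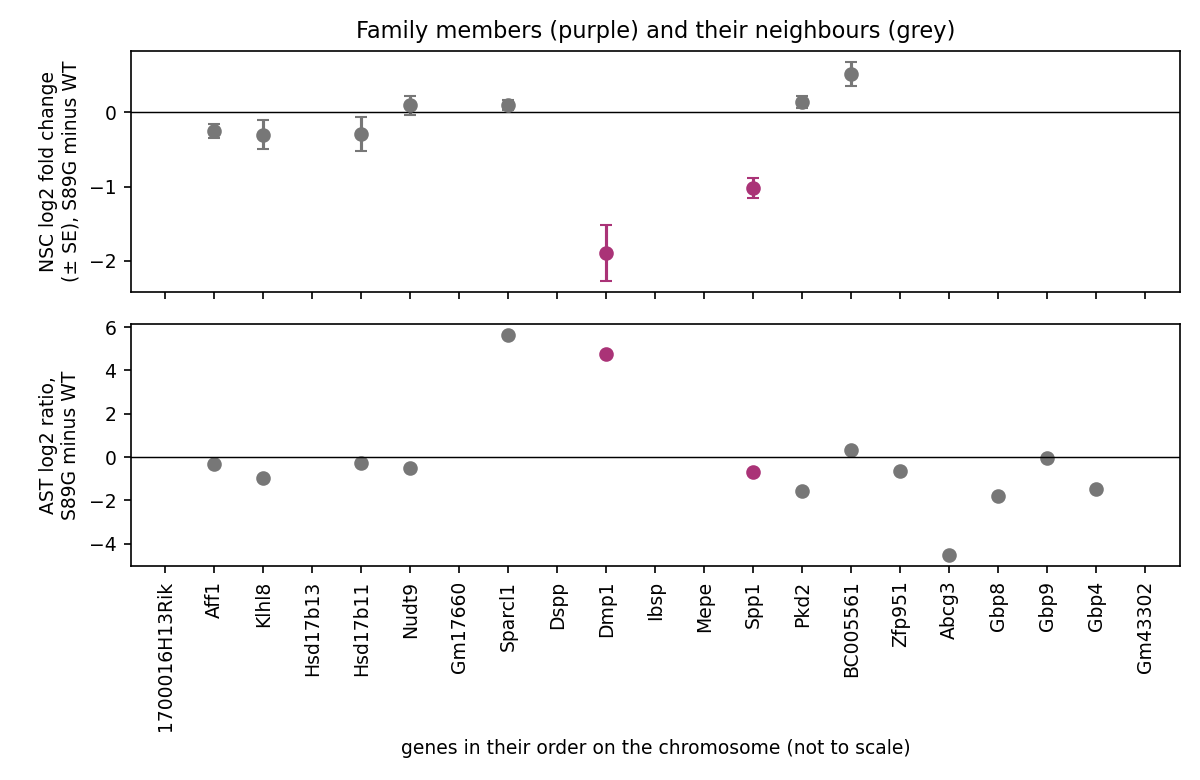
Log2 difference between genotypes for the 5 family members (purple) and their 16 neighbours (grey) in chromosomal order, in NSCs with SE (top) and in the 2 astrocyte libraries without error (bottom); genes without a point were not tested or not counted. Dmp1 at -1.90 and Spp1 at -1.01 are the lowest points in NSCs, and Sparcl1 at 5.63 and Dmp1 at 4.78 are the highest in astrocytes.

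Genes that act on or with SIBLING proteins were examined in 7 lists of 74 genes in all, of which Scpppq1 was not used. In NSCs 37 of them were tested, 9 were called lower and 1 was called higher, where 8.76% of all tested genes were called lower and 7.08% higher. The median log2 fold change over the 37 genes was -0.16, against 0.0026 over all tested genes. In the astrocytes 51 were counted, of which 20 were lower by 2-fold or more in S89G-AST and 3 were higher by as much, where 12.8% of all counted genes were that much lower and 17.3% that much higher, and 5.18% were 4-fold lower or more. The median log2 ratio over the 51 genes was -0.71, and -0.42 with library size alone.

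Receptors held the largest differences of these lists in NSCs. Of 9 tested receptor genes 4 were called lower and none higher, where 8.76% of all tested genes were called lower. Itga4, the integrin alpha4 subunit, which takes part in binding osteopontin, had 636, 701 and 673 counts in WT-NSC and 208, 206 and 200 in S89G-NSC, a log2 fold change of -1.66 (SE 0.071, edgeR adjusted p = 1.89e-29). Itga9, the alpha9 subunit, had 27, 46 and 39 counts in WT-NSC and 11, 10 and 13 in S89G-NSC, a log2 fold change of -1.66 (SE 0.261, adjusted p = 1.30e-06). Both alpha subunits can pair with the beta1 chain to bind cut osteopontin. For both every WT-NSC library lay above every S89G-NSC library, which held for 16.0% of tested genes. In the deposited TPM values neither was called, with limma on log2(TPM + 1) giving -0.89 for Itga4 (adjusted p = 0.262) and -1.36 for Itga9 (adjusted p = 0.0862).

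Itga8, whose product pairs with beta1 and binds the RGD tripeptide, had 38, 36 and 31 counts in WT-NSC and 12, 8 and 18 in S89G-NSC, a log2 fold change of -1.41 (SE 0.260, edgeR adjusted p = 3.20e-05), and of -1.28 on the log2(TPM + 1) scale, which did not pass (limma adjusted p = 0.0940). Itgb1, the beta1 subunit itself, was called at a log2 fold change of only -0.14 (adjusted p = 0.0421). That call was lost when any library other than S89G-NSC replicate 3 was left out, with adjusted p between 0.0621 and 0.319, and with DESeq2 (0.116). Itgav, the alpha subunit of the classical osteopontin receptors, had a log2 fold change of -0.09 and Cd44, a hyaluronan receptor that also binds osteopontin, of 0.32, and neither passed the test.

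In the astrocytes 2 of 10 counted receptors were at least 2-fold lower in S89G-AST and 1 higher, where 12.8% and 17.3% of all counted genes were. The median log2 ratio of the 10 was -0.65, and -0.35 with library size alone. Itga8 had 4085 counts in WT-AST and 88 in S89G-AST, a log2 ratio of -5.69. Itgb8, a beta subunit that pairs with alphav, had 110 and 3544 counts, a log2 ratio of 4.80. Itga8 was thus lower in S89G-NSC and in S89G-AST, and Itgb8 had a log2 fold change of 0.00015 in NSCs, which did not pass the test.

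Among the proteases known to cut matrix proteins 3 were tested in NSCs and 1 was called lower, where 8.76% of all tested genes were. Bmp1, the tolloid-type protease that cuts DMP1 and DSPP, had 427, 460 and 466 counts in WT-NSC and 322, 348 and 358 in S89G-NSC, a log2 fold change of -0.35 (SE 0.069, edgeR adjusted p = 0.00010). Every WT-NSC library lay above every S89G-NSC library for Bmp1, as for 16.0% of tested genes. In the astrocytes 2 of 7 counted proteases were at least 2-fold lower and none higher, where 12.8% of all counted genes were that much lower. Tll1, a relative of Bmp1, had 960 counts in WT-AST and 72 in S89G-AST, and Mmp2, a gelatinase, had 8954 and 1292, with log2 ratios of -3.88 and -2.98.

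None of the 4 tested genes of the list for phosphorylation was called in NSCs. Fam20c, the Golgi kinase for SIBLING proteins, had a log2 fold change of -0.16 (adjusted p = 0.464). In the astrocytes Fam20c had 1420 counts in WT-AST and 707 in S89G-AST, a log2 ratio of -1.19, or -0.90 with library size alone. Fam20a, a pseudokinase partner of Fam20c, had 590 and 91 counts, a log2 ratio of -2.85.

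The enzymes that build the chondroitin chain, the modification of DMP1 that the mutation addresses, were called lower in 2 of 15 tested genes in NSCs and higher in none. That count lies near the 8.76% of all tested genes that were called lower. Xylt1, which adds the first xylose to the serine of a core protein, had 1550, 1612 and 1689 counts in WT-NSC and 1381, 1266 and 1278 in S89G-NSC, a log2 fold change of -0.26 (SE 0.053, edgeR adjusted p = 0.00020). Csgalnact1, which commits the chain to chondroitin, had a log2 fold change of -0.34 (adjusted p = 0.0311). That call was lost without S89G-NSC replicates 2 or 3 and without WT-NSC replicates 1 or 2 (adjusted p = 0.0571 to 0.155) and with DESeq2 (0.308). In the astrocytes 6 of 15 were lower by 2-fold or more in S89G-AST and 1 was higher by as much. Of all counted genes 12.8% were that much lower and 17.3% that much higher. The higher one was Xylt1, with 46 counts in WT-AST and 225 in S89G-AST, a log2 ratio of 2.06.

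Among the regulators of mineral 2 of 5 tested genes were called lower and 1 higher in NSCs, where 8.76% and 7.08% of all tested genes were. Sparc, osteonectin, had 346, 377 and 358 counts in WT-NSC and 225, 257 and 231 in S89G-NSC, a log2 fold change of -0.55 (SE 0.077, edgeR adjusted p = 8.51e-08). Ank, a transporter that supplies extracellular pyrophosphate, had a log2 fold change of -0.37 (adjusted p = 0.0055), a call that was lost without S89G-NSC replicate 3 or WT-NSC replicate 3 (adjusted p = 0.0643 and 0.0737), and with DESeq2 (0.124). Alpl, the alkaline phosphatase that degrades pyrophosphate, was called higher at 0.51 (adjusted p = 0.0451), and that call was lost when any library other than S89G-NSC replicate 3 was left out (adjusted p = 0.0559 to 0.164), and with DESeq2 (0.364). On the log2(TPM + 1) scale none of Sparc, Ank, Alpl, Xylt1, Csgalnact1 and Itgb1 was called, while Bmp1 was (limma adjusted p = 0.0463).

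In the astrocytes 4 of 8 counted mineral regulators were at least 2-fold lower in S89G-AST and none higher, where 12.8% of all counted genes were lower. Mgp, an inhibitor of mineral formation, had 4709 counts in WT-AST and 680 in S89G-AST, and the phosphate transporter gene Slc20a1 had 4484 and 840, with log2 ratios of -2.97 and -2.60. Alpl had 532 and 205 counts, a log2 ratio of -1.55.

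Transcription factors of bone and tooth were too low to be tested in NSCs, where none of 8 passed the filter. In the astrocytes 4 of 5 counted factors were at least 2-fold lower in S89G-AST and none higher, where 12.8% of all counted genes were lower. Msx2 had 867 counts in WT-AST and 207 in S89G-AST, a log2 ratio of -2.24, and Dlx3 had 17 and 2. Runx2, which drives osteoblast genes, had 323 and 682 counts, a log2 ratio of 0.89, or 1.18 with library size alone. Of the osteoblast and odontoblast markers Sp7 and Bglap were low, with 0 and 3 counts of Sp7 and 3 and 2 of Bglap in WT-AST and S89G-AST. Col1a1, which is also on the fibroblast list, had 27329 and 22501 counts. The summed list stood at 2228 CPM in WT-AST and 1625 CPM in S89G-AST. Among the tooth matrix relatives only Sparcl1 was tested in NSCs or counted in astrocytes, with the values given above.

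**Figure D4:**
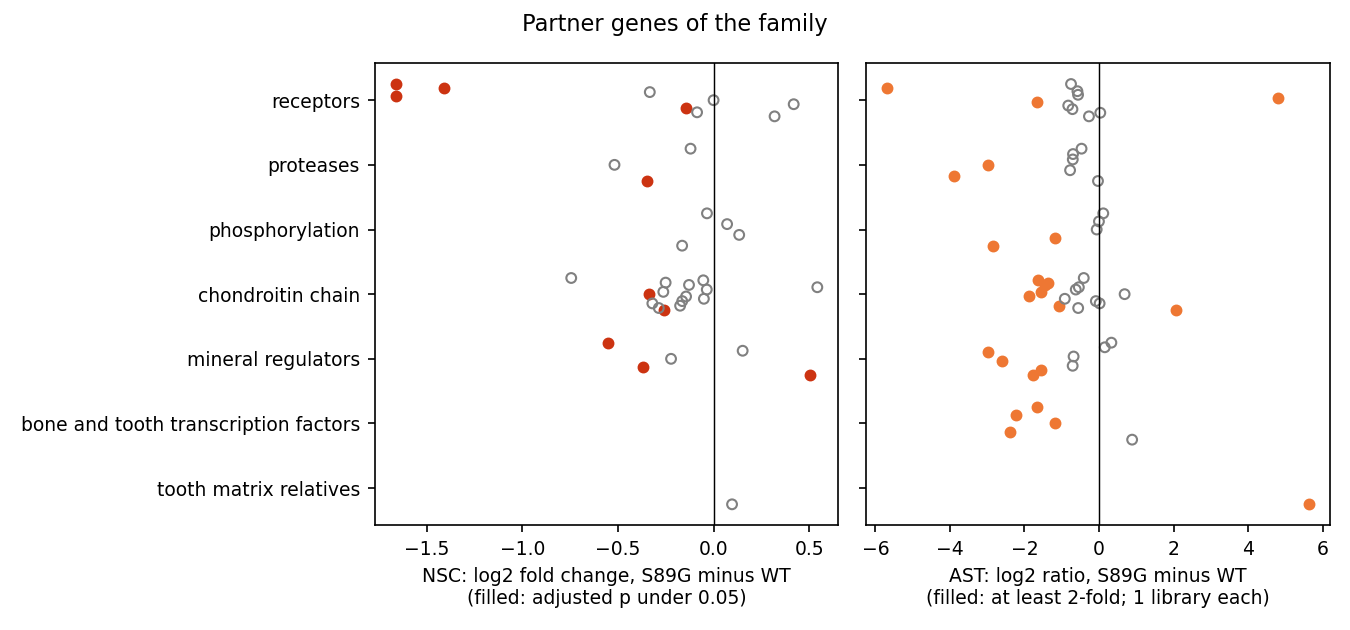
Log2 difference between genotypes for each tested gene of the 7 partner lists in NSCs (left, filled where the adjusted p was under 0.05) and for each counted gene in astrocytes (right, filled where at least 2-fold apart, 1 library each). Itga4, Itga9 and Itga8 stand alone at the left in NSCs between -1.66 and -1.41, and most filled astrocyte points lie below 0, apart from Itgb8 at 4.80, Xylt1 at 2.06 and Sparcl1 at 5.63.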

How the data were processed

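RNA of NSC and astrocyte cultures was sequenced by the study as paired-end libraries. For the astrocytes the authors removed adapter, undetermined and low-quality reads, aligned the rest with TopHat2 2.0.9 (Bowtie2 2.0.6 index), and deposited counts per gene and FPKM values. The build of these tables is not given in the sources used here. For the NSCs the submitters' processing notes list HISAT2, StringTie, featureCounts and GRCm38, and the authors deposited counts per gene and TPM values. Whether strand was used in counting is not given, and Gm42793 overlaps Spp1 on the same strand.

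NSC counts were fitted with edgeR 4.0.16 under R 4.3.3 (filterByExpr, TMM, quasi-likelihood test on genotype alone, Benjamini-Hochberg adjustment over all 11194 tested genes, threshold 0.05). Whether the NSC triplicates came from separate cultures or animals is not given, so p-values measure only the spread between these samples. Same-genotype NSC libraries differed by a chi-square of 1.07 to 1.51 per gene, and libraries of different genotype by 3.17 to 4.06. Astrocyte genes needed at least 10 counts in either library, log2 ratios were taken between TMM-scaled CPM after adding a prior count of 2, and intervals are 95% and exact. Genes named are the members, called partner and neighbouring genes, astrocyte partner genes at least 4-fold apart and the 3 nearest profiles of each tested member. Other genes with values (Itgav, Cd44, Fam20c, Runx2, the neighbours and the markers) were named after their values were seen. The members and lists were chosen with earlier results of these data known. The procedure was checked on simulated data. Alternatives used limma 3.58.1 and DESeq2 1.42.0, RLE factors, library size alone, other filters, TPM or FPKM, and left-out libraries.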

Additional observations from a re-analysis of the deposited data

Results flagged for a closer look

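Dmp1 differed in direction between the cell types, with a log2 fold change of -1.90 in NSCs and a log2 ratio of 4.78 in the astrocyte libraries. Among the partner genes Xylt1 did so as well, at -0.26 in NSCs and 2.06 in astrocytes, and Alpl at 0.51 in NSCs and -1.55 in astrocytes. The differences between the cell types were not tested, since the astrocytes have 1 library per genotype, and the Alpl call in NSCs depended on the libraries used. WT-AST and S89G-AST also differ in astrocyte markers and sex-linked transcripts. For the ratios of Dmp1, Xylt1 and Alpl, genotype, cell composition and sex cannot be told apart there.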

How the results depend on the processing

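Dmp1 and Spp1 kept their direction in NSCs under every alternative that gave a value. Requiring 10 counts in every library removed Dmp1, and DESeq2 gave it a log2 fold change of -1.92 with an unadjusted p of 0.0010 and no adjusted p, since its mean count of 11.3 lay under the filter that DESeq2 applied (11.4). With limma on log2(TPM + 1) and log2(TPM + 0.1), Spp1 was at -0.69 and -0.70 (adjusted p = 0.157 and 0.159) and no longer called. Without WT-NSC replicate 2, a setting chosen after seeing the data, log2(TPM + 1) gave -0.86 for Spp1 and -1.46 for Dmp1 (adjusted p = 0.125 and 0.105).

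Genes called lower and higher in NSCs numbered 981 and 792, against 424 and 321 with DESeq2, 107 and 38 with log2(TPM + 1), 85 and 31 with log2(TPM + 0.1), 31 and 17 with log2(TPM + 1) without WT-NSC replicate 2, and 770 to 926 and 571 to 733 with single libraries left out. Partner genes called lower numbered 9, with 7 to 8 when a library was left out, 6 with DESeq2 (without Itgb1, Csgalnact1 and Ank), 7 without a filter (without Itgb1 and Csgalnact1), 8 with 10 counts required in every library, 1 in both TPM settings and 0 in TPM without WT-NSC replicate 2. The 1 called higher became 0 with DESeq2, without a filter and in the TPM settings, and 0 to 1 with a library left out. BC005561 turned to -1.85, -3.35 and -1.79 in those 3 TPM settings. The causes were not tested.

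Replicate numbers did not pair the samples (correlations of deviations -0.017 to 0.028 for the same number and -0.022 to 0.032 for other numbers). With the replicate number as a block, Dmp1 was at -1.90 and Spp1 at -1.01 (adjusted p = 0.00015 and 2.80e-10), 1016 genes were called lower and 829 higher, and 10 and 1 partner genes.

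In the astrocytes Dmp1 fell to 2.03 with log2(FPKM + 1), and Spp1 was at -0.39 with library size alone and with either FPKM setting (1 or 0.1 added). Ibsp, Dspp and Mepe had too few counts in either cell type for a comparison.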
